A study of Mus musculus with 8 samples.

Results

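The nuclear pore and lamina genes are the genes that build the envelope around the nucleus of the oocyte. Members were chosen by symbol, from the nucleoporin names (Nup followed by a number) and 16 further symbols for pore, lamina and inner nuclear membrane proteins. The rule used no measured value, but earlier results of these data were known when it was set. The members came to 35 of the 25574 genes in the table. Ndc1, a membrane nucleoporin named in this choice, is listed under its older symbol Tmem48 and so falls outside these 35.

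The RNA-seq data comprised 8 libraries, 4 from the non-polysomal (NP) and 4 from the polysomal (P) part of sucrose gradients, numbered as biological replicates 1 to 4 of each dataset. All of them came from NEBD-stage oocytes of CD1 mice aged 8 weeks, and no genotype or treatment set the datasets apart. The mice had been injected with 5 IU of pregnant mare serum gonadotropin 46 h before collection, the oocytes were cultured for 180 min without IBMX, a phosphodiesterase inhibitor that holds them in prophase, and each sample pooled 200 of them after 10 min in 0.1 mg/ml cycloheximide, which holds ribosomes on the mRNA. P/NP comparisons ask how far an mRNA was associated with polysomes, but each library was scaled to itself, so a value is a share of its pool and not an amount of RNA. Since oocytes were pooled, less RNA per oocyte and fewer oocytes with that RNA cannot be told apart.

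The nuclear pore complex is a ring-shaped channel through the nuclear envelope, assembled from many copies of the nucleoporins, and the lamina is the filament mesh of lamins beneath the inner nuclear membrane. NEBD is the point at which both are taken apart. A fully grown oocyte does not transcribe, so its nucleoporin and lamin mRNAs are maternal and were stored during growth. After NEBD the pore proteins disperse into the cytoplasm, from where envelopes can be rebuilt after fertilisation.

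The libraries held markers of oocytes and very little of other cell types. All 10 oocyte markers, among them Gdf9, Bmp15 and the zona pellucida genes, were detected, and their summed level lay between 6854 and 14097 FPKM in NP and between 9008 and 36763 FPKM in P. By its definition, FPKM is a count of sequenced fragments divided by the length of the gene and by the number of fragments mapped in the library. Of 12 granulosa and cumulus markers, 5 were at 0 in every library, and the summed level of 6.07 to 76.6 FPKM in NP and 1.61 to 62.6 FPKM in P came mostly from Cyp19a1 in NP and in P replicates 1 and 2, with Foxl2, Inhba, Has2 and Amhr2 at 0 throughout. Of 6 blood and immune markers in the table only Cd68 was above 0, at up to 35.9 FPKM in NP and at 0 in P. The part of these levels in the values below was not tested. The number to which a library was scaled lay between 1299377 and 7594637, and 1 counted read on a gene of 1 kb was worth 0.132 to 0.770 FPKM.

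Nuclear pore and lamina mRNAs were abundant in both datasets, and none differed between them beyond the spread of the replicates. The median member had a mean of 47.5 FPKM over the 8 libraries, against 5.38 FPKM for all genes tested, and 30 of the 34 members tested lay above that median. Means were above 50 FPKM for 15 members in NP and for 17 in P, and 11 members passed 100 FPKM in at least 1 dataset. In contrast, 5 members had a mean below 5 FPKM in both datasets, namely Lmnb1, Lmnb2, Tpr, Ranbp2 and Nup210l. Single libraries of all but Nup210l rose above 5 FPKM, up to 15.8 FPKM for Tpr in P replicate 2. Nup210l, a relative of the membrane nucleoporin Nup210, was listed at 0 in 7 libraries and at 0.145 FPKM in NP replicate 3. It was the only member that did not pass the filter of a mean above 0.1 FPKM in at least 1 dataset.

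**Figure D1:**
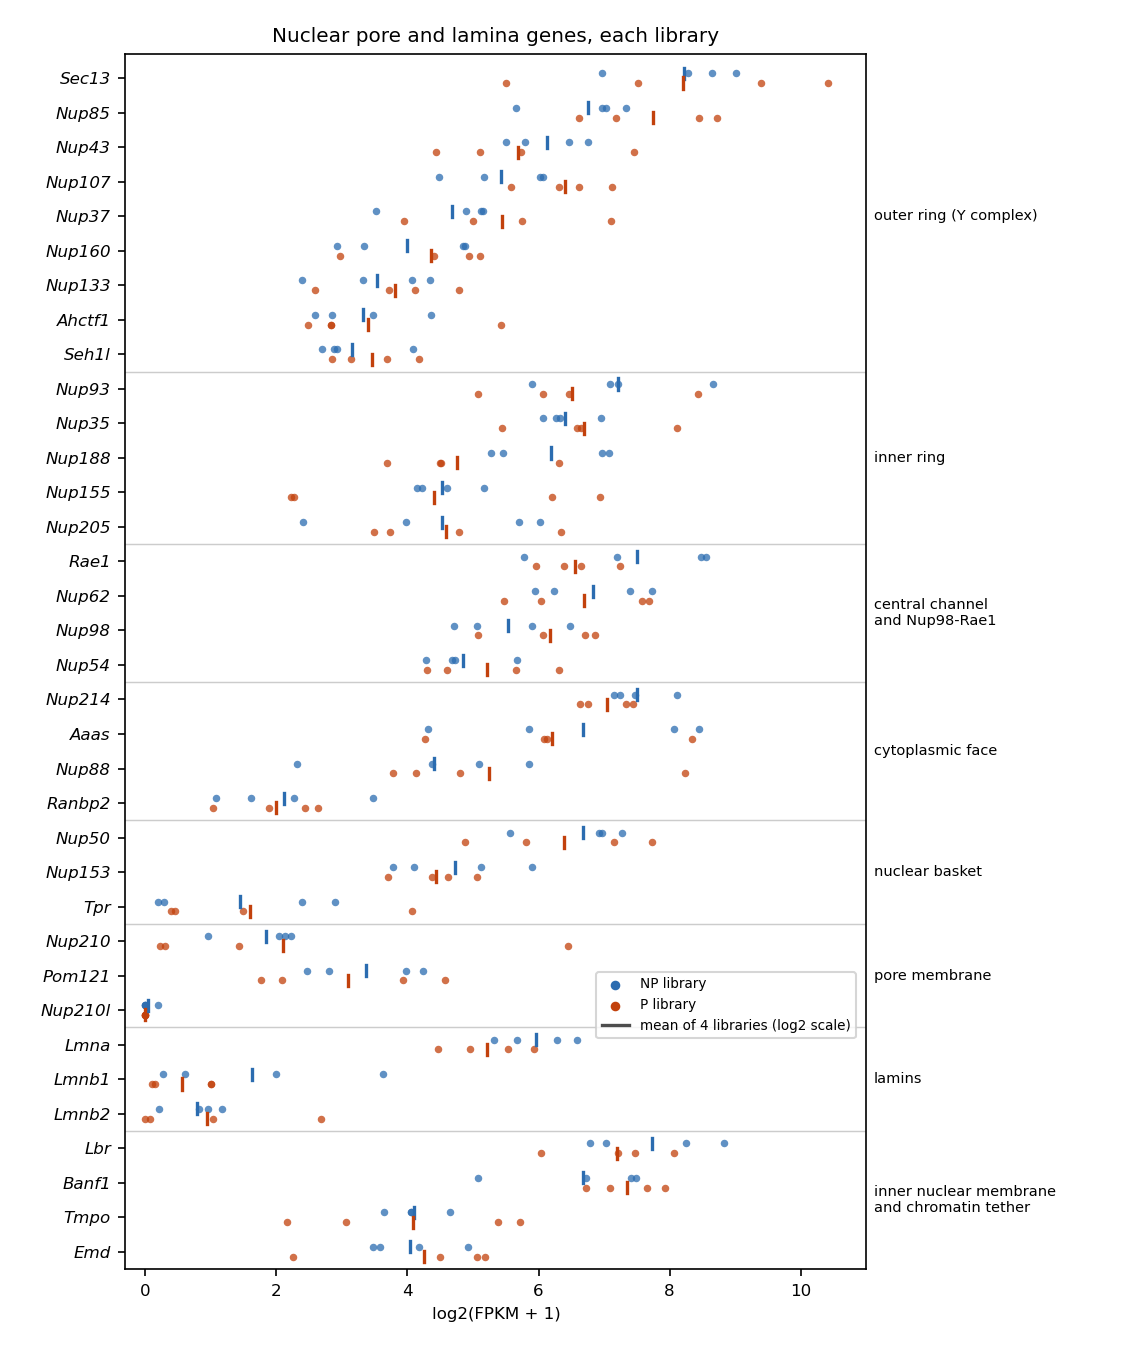
FPKM of all 35 genes on a log2(FPKM + 1) axis, with 1 point per library (NP in blue, P in orange), a bar at the mean of the 4 libraries of each dataset, and genes grouped by their place in the pore or envelope. Points of both datasets overlapped for every member, and levels within 1 group ranged widely, from Seh1l to Sec13 in the outer ring and from Lmnb2 to Lmna among the lamins.

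Differences between P and NP were tested with limma on log2(FPKM + 1) with Benjamini-Hochberg adjustment over 14292 genes. At an adjusted p below 0.1, 0 of 34 members were called by limma, beside 3 of all genes (0.021%). At an unadjusted p below 0.05 limma again gave 0 of 34 members, beside 9.95% of all genes (9.47% with NP higher and 0.476% with P higher), and limma with voom weights on recovered reads called 0 members and 1.47% of all genes. The lowest adjusted p of a member was 0.526. In 0 members did the libraries of P and NP fail to overlap, beside 6.28% of all genes (5.92% with NP above P). These counts do not show that the members were equal in both datasets, since the standard errors of 0.52 to 1.25 on the log2 scale were large and the 95% interval of 22 members reached from below −1 to above 1.

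The members were centred near a log2 fold change of 0 while most other genes leaned toward NP. The median of all genes was exceeded by 25 members, and 9 lay below it. Of the members, 17 had a log2 fold change of P over NP above 0 and 17 below, against 28.6% of all genes above 0. Their median was 0.02 and that of all genes −0.39, a difference of 0.41. Among genes with a mean above 10 FPKM in the higher dataset, the 30 members had a median of 0.02 and all 6415 genes one of −0.54. This position depended on how libraries were scaled to each other. After quantile normalization the median of all genes was −0.02, with 49.0% of them above 0, and 23 members lay above 0 and 11 below. With 1 median FPKM for all libraries the median of all genes was −0.17, with 40.4% above 0, and 28 members lay above 0 and 6 below. Relative to all genes the members' median was 0.52 higher and 0.63 higher under these scalings.

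**Figure D2:**
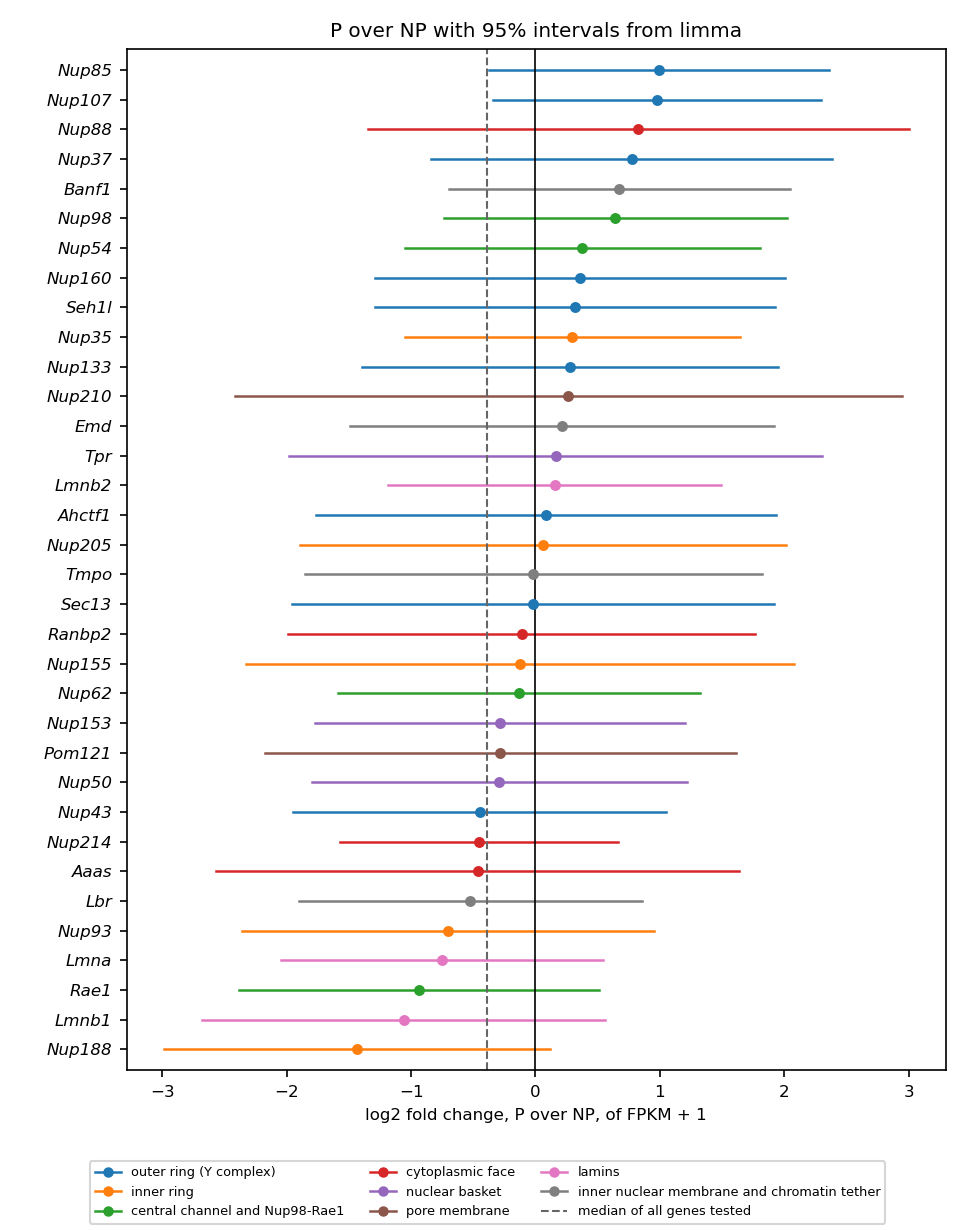
Log2 fold change of P over NP of FPKM + 1 for the 34 genes tested, as points with 95% intervals from limma, coloured by place in the pore or envelope. The intervals of all 34 genes included 0, from Nup85 at 0.99 to Nup188 at −1.44, and the dashed line marks the median of all genes tested at −0.39.

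The outer ring, or Y complex, is the scaffold that coats both faces of the pore, and its genes gave the highest median P/NP of all groups. Of its 9 members, 7 had a log2 fold change above 0 and 2 below, with a median of 0.32, and 0 passed the test at an unadjusted p below 0.05. With quantile normalization 7 of 9 and with 1 median FPKM 9 of 9 lay above 0. Its members summed to 835, 714, 396 and 649 FPKM in NP replicates 1 to 4 and to 2066, 511, 395 and 1425 FPKM in P replicates 1 to 4. The sums in P replicates 2 and 3 lay within the range of NP or just below it, so the higher mean of P (1100 against 648 FPKM) rested on P replicates 1 and 4. Sec13 alone gave 1361 of the 2066 FPKM in P replicate 1 and 670 of the 1425 FPKM in P replicate 4. It was also the largest part of each NP sum, with 514 of 835 FPKM in NP replicate 1 but 124 of 396 FPKM in NP replicate 3. In P replicate 3 Sec13 gave only 44.5 of the 395 FPKM, less than Nup107 at 139 FPKM. How far a single gene set these sums thus differed between libraries.

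Nup85, a Y complex scaffold subunit (chr11:115564434-115583985, GRCm38), had the highest log2 fold change of all members. Its FPKM values were 124, 130, 49.5 and 161 in NP replicates 1 to 4 and 348, 143, 97.4 and 423 in P replicates 1 to 4. P replicates 1 and 4 lay above every NP library and P replicates 2 and 3 inside the NP range. The means were 116 ± 47.2 FPKM in NP and 253 ± 157 FPKM in P (SD, n = 4 each). This was a log2 fold change of 0.99 with a standard error of 0.64 (limma, Benjamini-Hochberg adjusted p = 0.599), and of 0.63 without NP replicate 3.

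Nup107, the scaffold subunit that gives the Y complex its other common name (chr10:117750624-117792705), was the next in order. It had 34.9, 21.3, 63.8 and 65.9 FPKM in NP and 46.8, 96.9, 139 and 78.4 FPKM in P. P replicates 2, 3 and 4 lay above every NP library, and P replicate 1 lay between the NP values. Its log2 fold change was 0.98, with a standard error of 0.61 (limma, Benjamini-Hochberg adjusted p = 0.595). Without P replicate 1 it was 1.25 and the remaining P libraries all lay above NP, as for 0.742% of all genes under that setting. With 1 median FPKM for all libraries, Nup85 and Nup107 were at 1.50 and 1.48, with unadjusted limma p of 0.0347 and 0.0363, a threshold of 0.05 that 7.53% of all genes passed under that scaling.

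Sec13, a small propeller protein that serves both the Y complex and the COPII coat of secretory vesicles (chr6:113728067-113740743), was the most abundant member in both datasets. Its FPKM values were 514, 398, 124 and 310 in NP and 1361, 182, 44.5 and 670 in P. Both the highest and the lowest of these 8 values came from P. The mean was higher in P (565 ± 595 against 337 ± 164 FPKM, SD, n = 4 each), whereas the log2 fold change was −0.02 with a standard error of 0.90, and it ranged from −0.75 without P replicate 1 to 0.88 without P replicate 3. The other 6 members of the group had means between 8.63 and 73.3 FPKM in NP and between 10.8 and 70.2 FPKM in P. Nup37 and Nup43, further propeller proteins, stood at log2 fold changes of 0.77 and −0.45, and Ahctf1, which ties the Y complex to chromatin, at 0.08.

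The inner ring lines the channel and holds the central nucleoporins, and it contained Nup188, the member with the lowest log2 fold change of FPKM + 1. By the ratio of mean FPKM the low-level Lmnb1 was further toward NP among the members tested, at 0.146 against 0.396 for Nup188. Of its 5 members, 2 had a log2 fold change above 0 and 3 below, with a median of −0.12 (0.19 with quantile normalization). Nup188, a large inner ring scaffold protein (chr2:30286397-30344266), had 125, 133, 43.0 and 37.6 FPKM in NP and 21.6, 21.9, 11.9 and 78.7 FPKM in P. P replicates 1, 2 and 3 lay below all NP libraries and P replicate 4 between them. The means were 84.6 ± 51.3 FPKM in NP and 33.5 ± 30.5 FPKM in P (SD, n = 4 each), and the log2 fold change was −1.44 with a standard error of 0.72 (limma, Benjamini-Hochberg adjusted p = 0.526). Without P replicate 4 it was −1.96 with an unadjusted limma p of 0.0124 (9.23% of all genes were below 0.05) and an adjusted p of 0.497, and the datasets no longer overlapped, as for 8.65% of all genes in the same direction under that setting.

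Nup93, the inner ring protein that links the scaffold to the channel (chr8:94214597-94315066), was the most abundant of this group. It had 404, 136, 148 and 58.6 FPKM in NP and 344, 66.0, 87.7 and 32.8 FPKM in P. Replicate 1 was the highest and replicate 4 the lowest in both datasets, and the ranges overlapped. P over NP stood at −0.71 on the log2 scale with a standard error of 0.77 (limma, Benjamini-Hochberg adjusted p = 0.717). It was −0.22 without NP replicate 1, −0.23 without P replicate 4, −1.34 without P replicate 1 and −0.20 with 1 median FPKM. Nup35, Nup155 and Nup205, the remaining scaffold proteins of the ring, stood at log2 fold changes of 0.30, −0.12 and 0.06. Nup155 spread most widely of these in P, from 3.69 and 3.85 FPKM in P replicates 1 and 2 to 72.6 and 121 FPKM in P replicates 3 and 4, around an NP range of 16.8 to 34.9 FPKM.

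Among the central channel and Nup98-Rae1 genes, which form the permeability barrier and bind exported mRNA, Rae1 leaned toward NP and Nup98 toward P, both within their spread. Rae1, the mRNA export partner of Nup98 (chr2:173000117-173015739), had 376, 354, 146 and 53.7 FPKM in NP and 151, 83.2, 61.5 and 99.1 FPKM in P. NP replicates 1 and 2 were the highest libraries, but NP replicate 4 was below all P libraries. On the log2 scale P over NP was −0.94 with a standard error of 0.67 (limma, Benjamini-Hochberg adjusted p = 0.640). It ranged from −0.59 without NP replicate 1 and −0.62 without NP replicate 2 to −1.51 without NP replicate 4, the last with an unadjusted limma p of 0.0298 (11.3% of all genes were below 0.05) and an adjusted p of 0.404. Nup98, with means of 51.1 ± 28.4 FPKM in NP and 79.5 ± 37.7 FPKM in P (SD, n = 4 each), was at 0.64 with a standard error of 0.64, and Nup62 and Nup54, which fill the channel, were at −0.13 and 0.38.

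**Figure D3:**
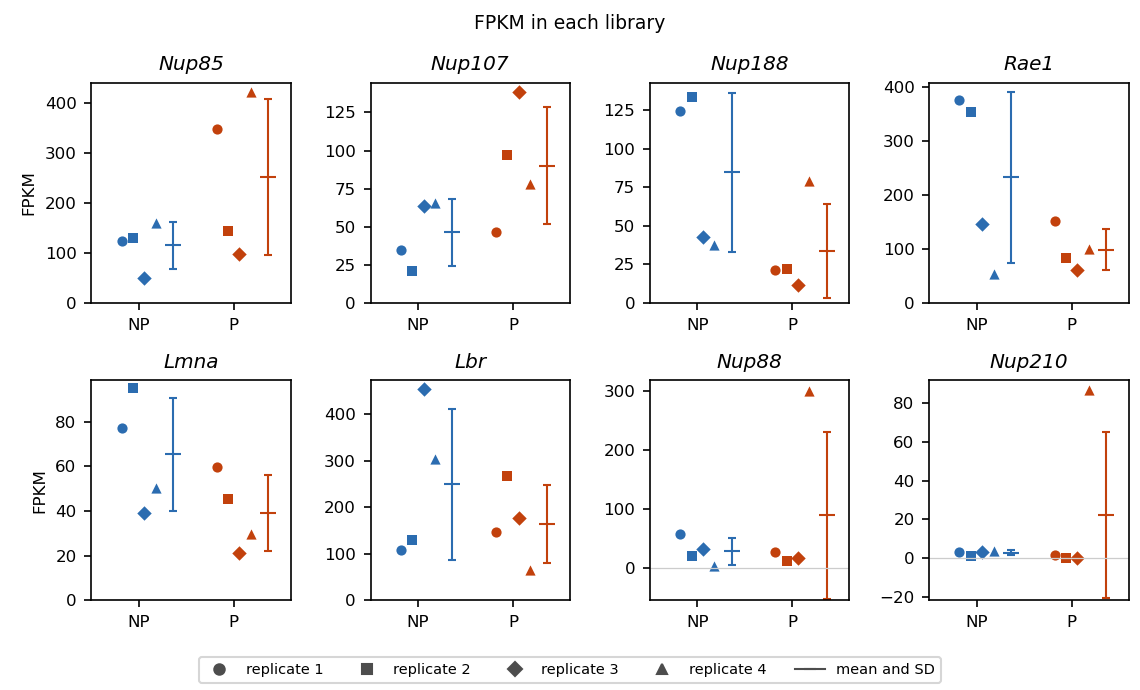
FPKM of 8 genes in each library on linear axes, with 1 marker shape per replicate number, NP in blue and P in orange, and the mean and SD of the 4 libraries beside the points. Nup85 and Nup107 had higher means in P and Nup188, Rae1, Lmna and Lbr higher means in NP, each with overlapping points, while the P means of Nup88 and Nup210 rested on replicate 4.

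The cytoplasmic face carries the filaments on which mRNA export ends, and 1 of its 4 members had a log2 fold change above 0 (median −0.28; 2 of 4 with quantile normalization and 4 of 4 with 1 median FPKM). Nup214, a filament protein that anchors the export helicase (chr2:31974436-32053975), was the most deeply counted member, with 51670 reads over the 8 libraries, and the least variable in the test. It had 276, 150, 177 and 141 FPKM in NP and 107, 160, 98.7 and 172 FPKM in P. P replicates 2 and 4 lay within the NP range and P replicates 1 and 3 below it. Its log2 fold change was −0.45, with a standard error of 0.52 and a 95% interval of −1.58 to 0.67 (limma, Benjamini-Hochberg adjusted p = 0.727). It was −0.25 without NP replicate 1.

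Nup88, the partner that holds Nup214 at the pore (chr11:70943058-70969973), showed how far 1 library could set a mean. It had 57.0, 19.8, 33.1 and 3.99 FPKM in NP and 26.9, 12.7, 16.6 and 301 FPKM in P. P replicate 4 held 84.3% of the P sum, and the other P libraries lay inside the NP range. The log2 fold change of 0.83 (standard error 1.01, limma, Benjamini-Hochberg adjusted p = 0.741) was −0.17 without that library and 0.13 without NP replicate 4. Aaas and Ranbp2, a scaffold and a filament protein of the same face, were at −0.47 and −0.11, and Aaas ran from 19.0 to 348 FPKM in NP and from 18.3 to 322 FPKM in P.

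The nuclear basket, the structure on the inner face of the pore, had 1 member above 0 and 2 below, with a median log2 fold change of −0.28 (0.05 with quantile normalization). Nup50, a mobile basket protein that takes part in import (chr15:84923428-84942955), had 154, 46.4, 120 and 124 FPKM in NP and 28.5, 141, 212 and 54.8 FPKM in P. The means of 111 ± 45.6 and 109 ± 83.5 FPKM (SD, n = 4 each) were close, and the log2 fold change was −0.29 with a standard error of 0.70, ranging from −0.74 without P replicate 3 to 0.21 without P replicate 1. Tpr, the coiled-coil protein that makes up the basket filaments, was far lower, at 0.149, 0.220, 6.43 and 4.25 FPKM in NP and 0.365, 15.8, 1.82 and 0.320 FPKM in P. These values came from 5, 3, 491 and 339 reads in NP and 18, 533, 85 and 9 reads in P, so libraries of the same dataset stood far apart. Nup153, which connects the basket to the ring, was at −0.28.

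Of the membrane nucleoporins, Nup210 and Pom121 span the pore membrane. Nup210 (chr6:91013068-91116829) had 3.38, 0.943, 3.11 and 3.66 FPKM in NP and 1.69, 0.229, 0.165 and 86.7 FPKM in P. P replicate 4 held 97.6% of the P sum, and P replicates 2 and 3 lay below all NP libraries. P over NP was 0.26 on the log2 scale, with a standard error of 1.25, the largest of all members, and ranged from −1.19 without P replicate 4 to 0.89 without P replicate 3. Pom121 was at −0.29, and Tmem48, the listed form of Ndc1 and read after the values were seen, had means of 27.1 FPKM in NP and 29.3 FPKM in P with a log2 fold change of −0.14.

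The 3 lamin genes were unequal in level by more than an order of magnitude. Lmna, which encodes lamins A and C (chr3:88481148-88509956), had 77.2, 94.8, 39.0 and 50.2 FPKM in NP and 59.8, 45.3, 21.1 and 29.9 FPKM in P. P replicates 3 and 4 lay below all NP libraries and P replicates 1 and 2 among them. The means were 65.3 ± 25.4 FPKM in NP and 39.0 ± 17.1 FPKM in P (SD, n = 4 each), and the log2 fold change was −0.75 with a standard error of 0.60 (limma, Benjamini-Hochberg adjusted p = 0.654), which became −0.50 without P replicate 3 and −0.25 with 1 median FPKM. The B-type lamins were at low levels. Lmnb1 averaged 3.76 ± 5.19 FPKM in NP, with 75.3% of the sum in NP replicate 3, and 0.549 ± 0.529 FPKM in P (SD, n = 4 each), while Lmnb2 averaged 0.782 ± 0.465 FPKM in NP and 1.63 ± 2.57 FPKM in P from 171 reads in all. Their log2 fold changes were −1.06 and 0.15 with standard errors of 0.75 and 0.62.

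Among the proteins of the inner nuclear membrane and the chromatin tether, Lbr and Banf1 were abundant and Emd and Tmpo moderate. Lbr, the lamin B receptor, which also has sterol reductase activity (chr1:181815316-181842401), had 109, 130, 454 and 304 FPKM in NP and 147, 267, 177 and 65.0 FPKM in P. NP replicates 3 and 4 were the highest libraries and P replicate 4 the lowest. P over NP was −0.53 on the log2 scale with a standard error of 0.64 (limma, Benjamini-Hochberg adjusted p = 0.740). It was −0.16 without NP replicate 3 and −0.14 without P replicate 4, −0.84 without NP replicate 1, and −0.016 with 1 median FPKM. Banf1, which cross-links DNA when the envelope reforms (chr19:5364641-5366645), had 169, 104, 32.7 and 179 FPKM in NP and 104, 135, 200.0 and 242 FPKM in P. P replicates 3 and 4 lay above all NP libraries, and the log2 fold change was 0.67 with a standard error of 0.64 (limma, Benjamini-Hochberg adjusted p = 0.687). Without NP replicate 3, the lowest library, it was 0.14. Emd and Tmpo, which encode the LEM-domain proteins emerin and LAP2, were at 0.21 and −0.02.

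For 14 members, annotated exons shared bases with another gene, and no source used here says that strand entered the counting. Reads of such genes cannot be told apart there. Among the members described with values, Banf1 shared 428 bases with Eif1ad, of the 1496 bases of its annotated exons. Lbr shared 440 bases with Dnah14, Nup188 492 bases with Gm14471 and 284 with Gm28038, Nup214 251 bases with Gm16534, 200 with Gm13609 and 177 with Fam78a, and Nup88 48 bases with Rabep1. Tpr shared 204 bases with Prg4 and 176 with Odr4.

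The relative levels of the members were on average most alike among the NP libraries, but the ranges of the pairs overlapped. Pearson correlations of log2(FPKM + 1) over the members averaged 0.819 between NP libraries, 0.668 between P libraries and 0.769 between an NP and a P library, and over all genes tested 0.832, 0.737 and 0.770. These are correlations across genes, which are not independent replicates, and share the genes' lengths and base composition. NP replicates 1 and 2 were the most alike, at 0.959, while the other NP pairs lay at 0.767 to 0.823. Pairs of an NP and a P library ran from 0.572 to 0.886. P replicate 4 was the least like the other P libraries, at 0.554 to 0.586, and lay at 0.572 to 0.709 with NP libraries. The order of the averages thus rested in part on the pair of NP replicates 1 and 2 and on P replicate 4. The SD of log2 values was larger in P than in NP for 22 of 34 members, beside 57.9% of all genes, with medians of 1.11 in P and 0.83 in NP. In P, 1 library held over 75% of the sum for 4 members, namely Nup210, Tpr, Nup88 and Lmnb2, beside 31.2% of all genes, and in NP for 1 member, Lmnb1, beside 20.4%.

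Shorter members had higher FPKM values although FPKM is already divided by length. The 14 members with a counted length below 3500 bases had a median of 117 FPKM over the 8 libraries, and the 20 longer ones 23.7 FPKM. Spearman's rho between level and length over the 34 members was −0.52, −0.55, −0.32 and −0.36 in NP replicates 1 to 4 and −0.65, −0.43, −0.32 and −0.23 in P replicates 1 to 4. Over 13437 genes it lay between −0.04 and 0.15. The log2 fold change of P over NP had no such relation to length among the members (rho = −0.01), beside 0.09 over all genes. All of these describe genes, which share libraries and are not replicates. Nup214 stood apart from the rule as a long and abundant member, and Lmnb1 as a short and scarce one.

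**Figure D4:**
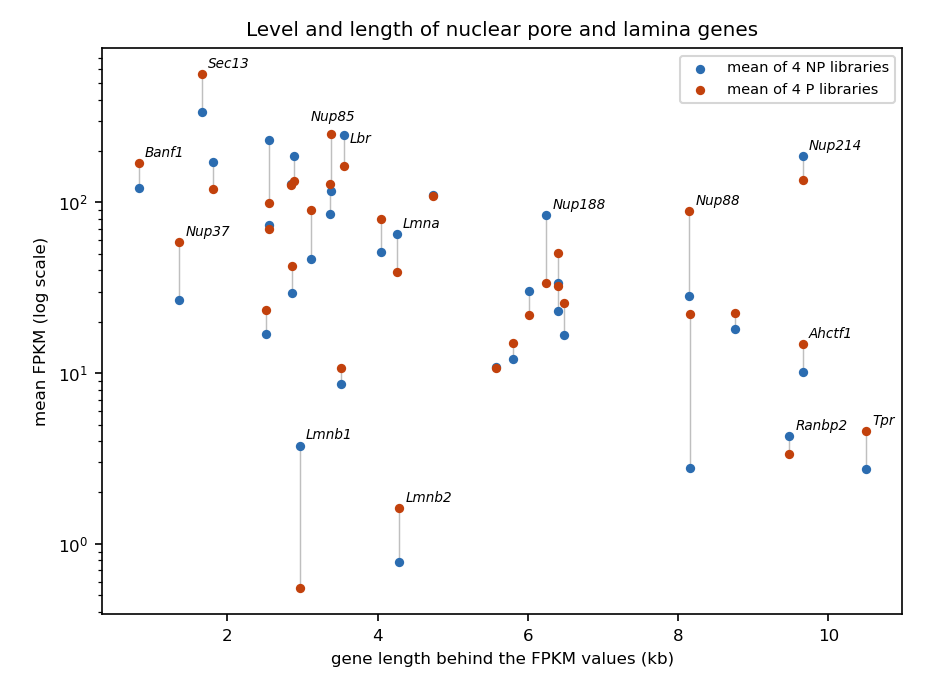
Mean FPKM in NP (blue) and P (orange), on a log axis, against the gene length used for the FPKM values in kb, with a line joining the means of each of the 34 genes. Members shorter than 3.5 kb mostly lie above 20 FPKM, with Lmnb1 as the lowest, and Tpr, the longest, lies below 5 FPKM.

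In maturing oocytes, many stored mRNAs are turned on by cytoplasmic polyadenylation, which needs a polyadenylation hexamer and, near it, a U-rich cytoplasmic polyadenylation element (CPE). The last 100 bases of 1 annotated transcript per gene were searched on the transcript strand for the CPE letters TTTTAT or TTTTAAT and for the hexamer letters AATAAA or ATTAAA. Of 30 members with a usable transcript, 25 (83.3%) held the hexamer, beside 79.1% of 11219 genes tested. A CPE was present in 7 members (23.3%), beside 19.0% of genes, and both were present in the same 7 members (23.3%), beside 15.8%. These 7 were Lbr, Nup35, Rae1, Nup54, Nup62, Nup98 and Nup37. In 4 of them both motifs fitted within 30 bases, and these windows are shown since Rae1 and Nup98, partners in mRNA export, stood on opposite sides of 0. Capitals mark the CPE and the hexamer, written as DNA from 5′ to 3′ (GENCODE M21, GRCm38).
Nup98 (chr7:102134214-102134243, minus strand): ttTTTTAATtgattttgaaaaAATAAAgat
Rae1 (chr2:173015646-173015675, plus strand): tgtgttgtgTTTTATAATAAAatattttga
Nup35 (chr2:80658873-80658902, plus strand): tccaAATAAActttgtcaatTTTTATgtgc
Nup54 (chr5:92415542-92415571, minus strand): aaAATAAAttgttaatttgtaaTTTTATgt

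In Nup98 the CPE preceded the hexamer by 12 bases, in Rae1 it touched it, and in Nup35 and Nup54 the CPE shown followed it. Nup54 held 2 CPE matches in the searched bases, and the other lay outside the window. The Nup54 hexamer ended 24 bases before the transcript end, and the window shows most of these bases. The other match therefore lay before this hexamer. On the log2 scale the genes with windows had P over NP at 0.64, −0.94, 0.30 and 0.38 in the order of the windows. The 7 members with a CPE had a median log2 fold change of 0.30 (range −0.94 to 0.77) and the 23 without one a median of 0.08 (range −1.44 to 0.99), so the ranges overlapped almost fully. A match of letters is not evidence of a working element, and whether these ends are used in oocytes was not tested.

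Other envelope genes were counted in the same way. Of 35 genes listed outside the members (pore genes with other symbols, the LINC complex that couples the envelope to the cytoskeleton, further inner membrane proteins, torsins and lamin processing enzymes), 31 were in the table and 29 were tested. Of these, limma called 0 at an adjusted p below 0.1, beside 0.021% of all genes, with 1 at an unadjusted p below 0.05, beside 9.95% of all genes. A count of 0 in so short a list is close to the share over all genes. Of the 29, 9 had a log2 fold change above 0 and 20 below (median −0.24). Syne2, which encodes the giant LINC protein nesprin-2, was the gene whose P libraries (28.0, 21.2, 28.8 and 32.5 FPKM) all lay above NP (7.08, 11.3, 12.3 and 11.4 FPKM), as for 0.357% of all genes. Its means were 27.6 ± 4.73 and 10.5 ± 2.33 FPKM (SD, n = 4 each), and its log2 fold change was 1.33 with a standard error of 0.63 (limma, Benjamini-Hochberg adjusted p = 0.507).

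Lpin3, a lipin of phosphatidic acid metabolism, went the other way, with 5.17, 7.92, 7.51 and 6.74 FPKM in NP and 8.81 FPKM in P replicate 1 but 0 in the other P libraries. Its log2 fold change was −2.13 with a standard error of 0.93 (limma, Benjamini-Hochberg adjusted p = 0.482). The most abundant genes of this list were Tor1a, the envelope ATPase torsin-1A, at 3649 FPKM in NP and 3799 FPKM in P (log2 fold change −0.00), Nxf1, the main mRNA export receptor, at 257 and 151 FPKM, and Ddx19a, an export helicase of the cytoplasmic face, at 119 and 165 FPKM. Nxf1 spread from 0.981 to 301 FPKM over the P libraries.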

How the data were processed

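The 8 libraries were grouped by title into NP and P. Per the labels and the study's methods, pooled gradient fractions were depleted of rRNA, reverse transcribed with random and oligo(dT) primers, amplified as whole transcriptomes and made into Nextera libraries. Before deposit, the authors used Trim Galore 0.4.1 for trimming, FastQC 0.11.5 for quality control, HISAT2 2.0.5 for mapping on GRCm38 and Seqmonk for quantification as FPKM. The deposited table holds these FPKM values per library, on a linear scale. The deposited tables of expressed genes and of DESeq2 comparisons hold the authors' means, ratios, fold changes and p-values and were not used.

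Here log2(FPKM + 1) was fitted with limma 3.58.1 in R 4.3.3 by lmFit and moderated by eBayes using an intensity trend, all tests being 2-sided. The added 1 understates fold changes of low genes. A gene was tested if its mean passed 0.1 FPKM in NP or in P, and p-values were adjusted by Benjamini-Hochberg, with calls below 0.1. The script was tested on simulated data, with changes larger than that of any member put into genes of small spread. That test does not show whether changes of the members' size and spread would be called. Read steps and each library's scaling number were recovered from the FPKM values for 14213 genes, 91.2% of those above 0, with a tolerance of 0.01 read. The length was the merged exon length of GENCODE M21 for 7608 of them and was searched between 100 and 30000 bp for 6605. Summed over genes, the recovered reads came to 1.35 to 1.78 times the scaling number of their library. A recovered read can therefore not be taken as 1 fragment out of that number, and the cause was not tested. Reads are of amplified cDNA without molecular identifiers, so they are not independent molecules. Members and gene lists were chosen with earlier results of these data known. Members were named with values if called, not overlapping or under an unadjusted p of 0.05, if among the 3 highest in NP or in P, if the highest of a group, or if among the 3 highest or 3 lowest log2 fold changes above 10 FPKM, and other members are given by group. Levels of Tpr, Nup98, Nup155, Aaas, Lmnb1, Lmnb2 and Tmem48 fall outside this rule and were chosen after their values were seen. Alternatives were other pseudocounts, filters and scalings, a replicate block, eBayes without a trend, voom on the recovered reads and leaving out each library. Tables were handled with Python 3.11.15, numpy 2.4.6, pandas 2.3.3 and scipy 1.17.1, and figures with matplotlib 3.10.9.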

Additional observations from a re-analysis of the deposited data

Results flagged for a closer look

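In P replicate 4, 3 of the members described with values stood apart from the other P libraries, with a gap to the nearest of them that, as a share of the whole P range, exceeded Dixon's 95% limit for 4 samples. These were Nup188 at 78.7 FPKM, Nup210 at 86.7 FPKM and Nup88 at 301 FPKM. For normally distributed values, chance alone gives about 1 such case in 20 groups of samples. Here the limit was applied to FPKM on a linear scale, for which that rate need not hold. Over all 35 members and both datasets, 8 of 70 groups (11.4%) passed this limit, 4 of them in P replicate 4, 2 in NP replicate 3 and 1 each in P replicates 1 and 2. Every value so flagged was the highest of its group. Among them was Nup210l in NP, at 0 in all but NP replicate 3, and the 70 groups include Nup210l in P, at 0 throughout. The share of 11.4% is therefore a description and does not show more such cases than chance gives. P replicate 4 also had the fewest genes above 0, at 9139 against 10287 to 11339 in the other P libraries. The part of this in the values was not tested.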

How the results depend on the processing

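Members called at an adjusted p below 0.1 numbered 0 under all 16 alternatives, and the members' median stayed 0.29 to 0.74 above that of all genes wherever it was computed. The count of all genes called was not stable: 3 as reported, 5 with a pseudocount of 0.1, 0 without a filter, 5 with a filter at 1 FPKM, 0 with quantile normalization, 0 with 1 median FPKM, 20 without a trend, 198 (1.47%) with voom on recovered reads and 0 to 5 when single libraries were left out. Members at an unadjusted p below 0.05 numbered 2 with 1 median FPKM (Nup85 and Nup107) and 0 to 2 without single libraries (Nup188 and Rae1 without NP replicate 4, Nup188 without P replicate 4). Members with no overlap numbered 0 to 1 in each direction without single libraries. For the 13 named genes, 4 settings leave the log2 fold change as it is, and of the other 156 refits 142 kept direction and 14 reversed. Nup210 was at −0.42 with a pseudocount of 0.1 and −1.003 with voom, and Nup214 was at 0.056, Nup50 at 0.22 and Sec13 at 0.49 with 1 median FPKM, while voom gave Sec13 0.093. Leaving out single libraries gave −1.19 to 0.89 for Nup210 (below 0 without P replicate 4 or NP replicate 2), −0.74 to 0.21 for Nup50 (above 0 without P replicate 1), −0.17 to 1.31 for Nup88 (below 0 without P replicate 4) and −0.75 to 0.88 for Sec13 (above 0 without NP replicates 1 or 2 or P replicates 2 or 3). The cause was not tested.

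The labels do not state that equal replicate numbers in NP and P mean one gradient. After the mean of each dataset was subtracted, libraries of equal number correlated over all genes at 0.139, 0.0518, 0.251 and 0.155 for replicates 1 to 4, and libraries of unequal number at −0.135 to 0.136. The value of 1 pair was under 0.1, so the numbers were not taken as pairs, although each gradient gave both an NP and a P pool. Each P library was closest to the NP library of its own number, whereas NP replicate 2 was closer to P replicate 1 (0.136) than to P replicate 2. These values do not settle whether equal numbers mark the same gradient, and the main fit leaves out any such pairing. A fit blocked on the replicate number called 1 of all genes and 0 members, the lowest adjusted p of a member being 0.427 for Nup188 by limma. Between libraries of equal number, P was higher in all 4 for Nup85, Nup107 and Nup98 (3 of 34, 8.82%, beside 2.2% of all genes) and NP was higher in all 4 for Lmna and Nup93 (2 of 34, 5.88%, beside 16.5%). With 4 libraries a dataset, the intervals of 22 members spanned from below −1 to above 1, and B-type lamins, Tpr and Ranbp2 rested on few reads in several libraries.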
